A study of Equus caballus with 6 samples.

Results

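Complement is the part of innate immunity made of plasma and tissue proteins that cut and activate one another on a target surface. This account covers 9 complement genes in the lamellar tissue of horses with and without laminitis. They are CFB, CFD and C3 of the alternative pathway, C1QB, C1R, C1S and C2 of the classical pathway, the regulator CFI and the terminal component C7. All probe sets whose single gene symbol in the platform annotation is one of these 9 were taken, which gave 12 probe sets out of 13292 that carry a single symbol, for 9 of 9155 genes. CFB was selected on its high level in laminitis on these same arrays, and the other members were chosen from its pathway with the same comparison known. The differences between laminitis and normal tissue in these genes are therefore given as a description, without a test.

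The arrays came from diseased tissue, labelled laminitis (replicates 1, 3 and 4), and from normal tissue (replicates 2, 3 and 4). All 6 were taken from the right foot, with 1 array per sample. Lamellar tissue is the interleaved epidermis and dermis that holds the coffin bone inside the hoof wall, and laminitis is the disease in which that bond fails. How laminitis arose, the age and breed of the horses, and whether the samples are separate animals are not given in the sources used here, so any spread between arrays may be technical.

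In the classical pathway C1q, of which C1QB is a chain, binds antibody or damaged cells, and the proteases C1R and C1S attached to it then cut C4 and C2. In the alternative pathway factor B binds deposited C3b and is cut by factor D, the product of CFD, which gives a convertase that deposits more C3b and so amplifies the response. C2 and factor B are homologous proteases with the same task in their own pathways. Factor I cuts C3b and C4b and so ends convertase activity. C7 is a part of the membrane attack complex. The liver makes most plasma complement, but keratinocytes, fibroblasts and macrophages of the skin make components locally, and CFB is known as an acute-phase gene that inflammatory cytokines induce.

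Horse RNA was read with bovine probes, so a probe set reads low where the horse sequence mismatches it, and 1 probe set's level says nothing beside another's. Signal is in the deposited linear units, in which the median of an array lay between 86.69 and 96.59. A probe set entered the test over the whole array where it lay above its array's median on at least 3 of 6 arrays, which 12519 probe sets did. Of the 12 complement probe sets 8 entered, 1 for each gene except C7. The test, limma with Benjamini-Hochberg adjustment, called 0 of the 12519 probe sets in either direction, or 0%, at an adjusted p of 0.05, with a smallest adjusted p of 0.101 and 1226 probe sets at an unadjusted p under 0.05. In tissue as a whole, a change in the number of cells of a type and a change in RNA per cell cannot be told apart.

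CFB, the protease of the alternative convertase, had a signal of 640.5, 555.7 and 139.5 on laminitis replicates 1, 3 and 4, against 26.97, 28.8 and 28.55 on normal replicates 2, 3 and 4. All 3 laminitis arrays lay above all 3 normal ones, and the lowest laminitis value was 4.85 times the highest normal value. The mean signal was 445.3 ± 268.1 in laminitis and 28.11 ± 0.99 in normal tissue (SD, n = 3 each). The ratio of geometric means was 13.1, a log2 difference of 3.71 ± 0.56 (laminitis minus normal, limma's SE, n = 3 per group). Among the 12519 probe sets in the test it ranked 4 from the highest difference. The rank was 6 with 64 added to every signal before log2 and 7 among all 24016 probe sets. CFB was selected on its high level in laminitis, so its rank is a description only.

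**Figure D1:**
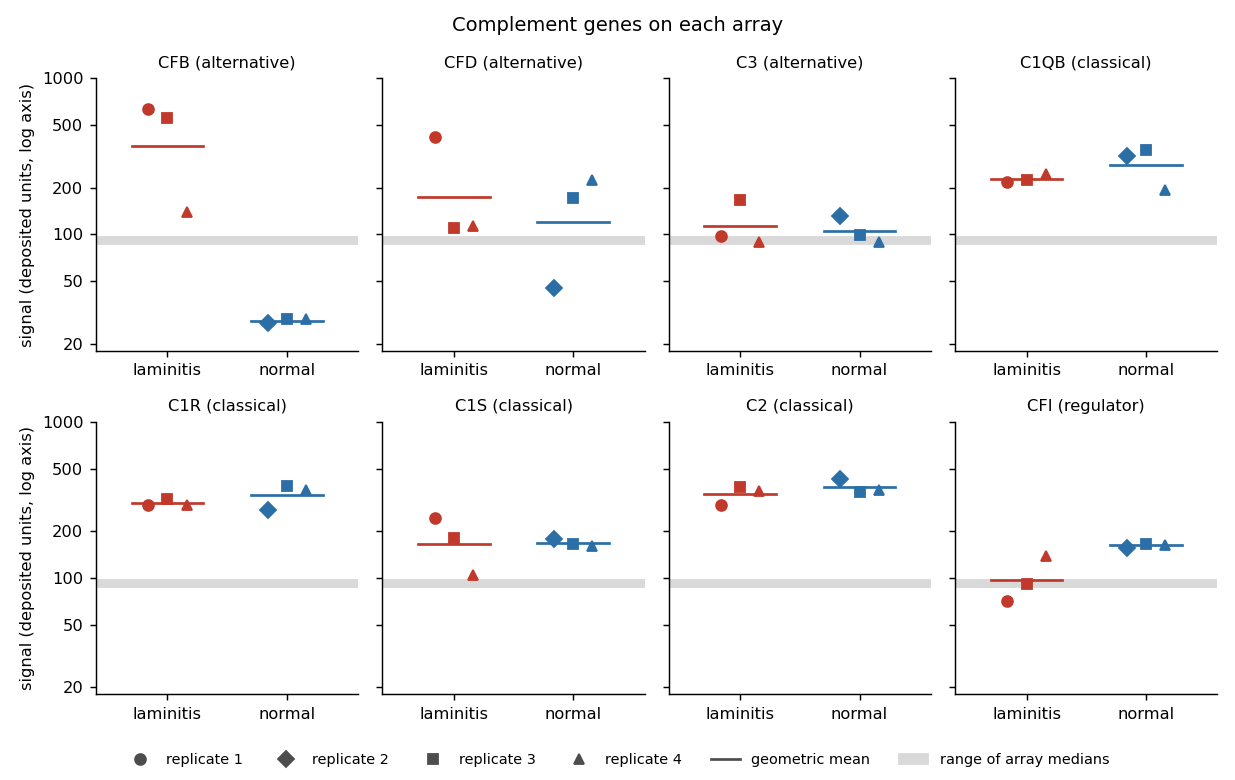
Signal of the 8 complement probe sets bright enough to test, on a log axis in deposited units, with laminitis left of normal. Each point is an array, bars are geometric means of 3 arrays, and the grey band spans the array medians. CFB at 139.5 or more in laminitis is apart from normal tissue at 28.8 or less, CFI is apart in the other direction, and the groups overlap in the remaining 6.

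CFB entered the test through the laminitis arrays alone, as 0.687% of the tested probe sets did. Its normal values lie near the lower quartile of the arrays (27.52 to 31.94), and no detection calls were used to tell such a signal from background, so the size of the fold depends on the offset. With 16 added to every signal before log2 the CFB difference was 3.14, and with 64 added it was 2.28. The CFB signal varied more among laminitis arrays than among normal ones. Its SD on the log2 scale was 1.22 in laminitis, larger than that of 96.3% of tested probe sets, and 0.051 in normal tissue, where 3.55% of tested probe sets had a smaller one. The medians over all tested probe sets were 0.32 in laminitis and 0.26 in normal tissue. Laminitis replicate 4, the dimmest of its group, set most of the spread. The CFB difference was 4.41 without it and between 3.31 and 3.73 without any other array.

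**Figure D2:**
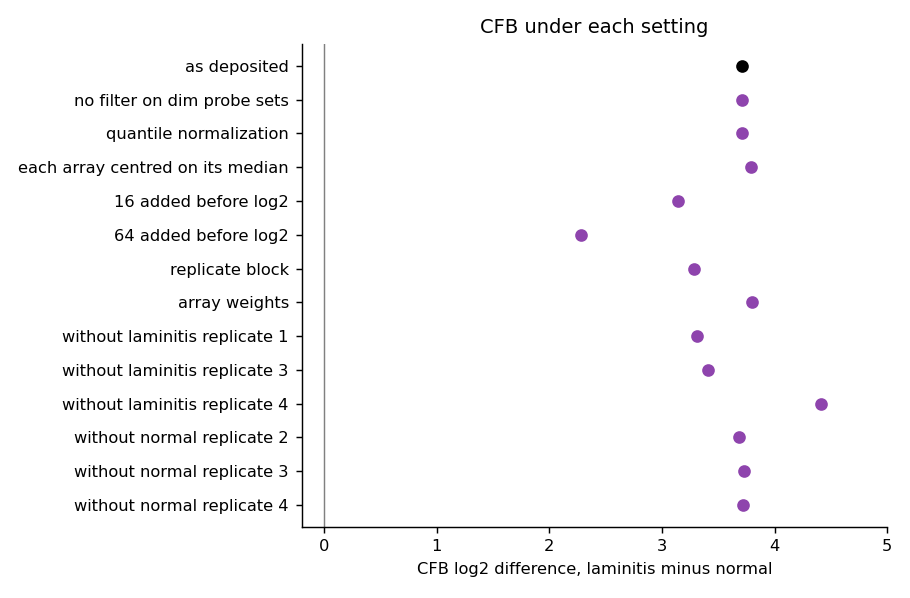
CFB log2 difference (laminitis minus normal) as deposited (black) and under each alternative setting in which it was fitted. Values run from 2.28 with 64 added before log2 to 4.41 without laminitis replicate 4. The groups were apart, so an offset or leaving out an array could not change the sign.

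CFD encodes factor D, the protease that cuts C3b-bound factor B. Its signal was 418.6, 109.4 and 113.6 on laminitis replicates 1, 3 and 4, against 45.52, 170.6 and 224.9 on normal replicates 2, 3 and 4. The groups overlapped, since laminitis replicates 3 and 4 lay below normal replicates 3 and 4. The log2 difference was 0.53 ± 0.74 (SE, n = 3 per group) and changed sign to -0.18 without normal replicate 2, the dimmest of the 6 arrays, and to -0.11 without laminitis replicate 1, the brightest. The highest array was 9.2 times the lowest for CFD, the widest range of a member after the 23.8 of CFB.

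C3, the protein at which all activation routes meet, was read by 3 probe sets. The brightest gave 97.48, 166.8 and 90.04 on laminitis replicates 1, 3 and 4, against 132.1, 99.86 and 89.66 on normal replicates 2, 3 and 4. These groups overlapped, with a log2 difference of 0.10 ± 0.30 (SE, n = 3 per group), which ran from -0.18 without laminitis replicate 3 to 0.27 without laminitis replicate 4. The second C3 probe set read between 36.84 and 42.4 on all 6 arrays and differed by -0.056. The third had 26.75, 11.96 and 17.27 in laminitis, against 15.87, 19.64 and 88.02 in normal tissue, and its difference of -0.77 came down to 0.0021 without normal replicate 4. Neither of these reached its array's median on any array, so 1 of the 3 C3 readings is bright enough to weigh.

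C1QB, the B chain of the recognition protein C1q, had 216.8, 223.1 and 244.4 on laminitis replicates 1, 3 and 4, against 318, 346 and 193.3 on normal replicates 2, 3 and 4. Normal replicate 4 lay below all laminitis arrays and the other 2 normal arrays above them. The log2 difference was -0.28 ± 0.26. It was -0.12 without normal replicate 3 and -0.54 without normal replicate 4, when the groups no longer overlapped. C1R, the protease that activates C1S, had 292.1, 317.5 and 293.2 in laminitis, against 269.5, 385.8 and 366.1 in normal tissue. Its difference was -0.16 ± 0.21. It was -0.063 without normal replicate 3 and -0.32 without normal replicate 2, again with no overlap.

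C1S, which cuts C4 and C2, had 240.6, 179.7 and 103.6 on laminitis replicates 1, 3 and 4, against 175.9, 163.6 and 159.5 on normal replicates 2, 3 and 4. The laminitis arrays lay on both sides of the normal ones, and the difference was -0.012 ± 0.32 (SE, n = 3 per group). It was 0.32 without laminitis replicate 4, with no overlap, and -0.29 without laminitis replicate 1. The order of the laminitis arrays in C1S was that of CFB, but C1S spanned a 2.32-fold range within laminitis and CFB a 4.59-fold range.

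C2, the classical counterpart of factor B, had 292.1, 382.8 and 359.6 on laminitis replicates 1, 3 and 4, against 429.8, 356.1 and 362.8 on normal replicates 2, 3 and 4, in its brighter probe set. The groups overlapped, with a log2 difference of -0.16 ± 0.20. The dimmer C2 probe set had 103.1, 66.82 and 53.03 in laminitis, against 59.23, 85.41 and 117.8 in normal tissue, and did not enter the test. Its difference was -0.24. CFB and C2 are neighbours in the horse genome by RefSeq's gene table, with 0 coding genes between them, and CFB was 13.1-fold higher in laminitis where the brighter C2 probe set gave 0.898 for the same ratio.

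CFI, the protease that inactivates C3b and C4b, had 70.62, 91.57 and 138.5 on laminitis replicates 1, 3 and 4, against 155.7, 164.8 and 162.2 on normal replicates 2, 3 and 4. All 3 laminitis arrays lay below all 3 normal ones, the gap being widest for laminitis replicate 1. Mean signals were 100.2 ± 34.8 in laminitis and 160.9 ± 4.68 in normal tissue (SD, n = 3 each). The log2 difference was -0.74 ± 0.27 (SE, n = 3 per group), or 1.67-fold lower in laminitis, and it was strongest without laminitis replicate 4, at a difference of -1, and weakest, at -0.51, without laminitis replicate 1. In laminitis the CFI signal was lowest on replicate 1 and highest on replicate 4, the reverse of CFB. With 3 arrays this order is a description only.

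C7 had 10.79, 20.43 and 18.89 on laminitis replicates 1, 3 and 4, against 28.21, 57.58 and 15.52 on normal replicates 2, 3 and 4. It lay below the array median on all 6 arrays and did not enter the test. The groups overlapped, and the log2 difference of -0.87 became -0.38 without normal replicate 3.

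Over all 12 probe sets, 1 (CFB) had all 3 laminitis arrays above all 3 normal ones, 1 (CFI) had all 3 below, and 10 overlapped. Both were among the 8 that entered the test. Over all tested probe sets 7.89% were apart with laminitis higher and 8.92% with laminitis lower, and 1.61% were apart with laminitis at least 2-fold higher, as CFB was. Since the members were chosen with this comparison known, nothing is read from these counts. Of the 8 tested members 3 had a positive log2 difference, all of them in the alternative pathway. The 5 probe sets of the classical pathway had negative differences, between -0.28 and -0.012, and all 5 overlapped. The median over the 8 was -0.084, and over all tested probe sets it was -0.056. The signs of the small differences depended on scaling and on single arrays. After quantile normalization, with each array centred on its median or with 64 added before log2, 4 of the 8 were positive, and with 1 array left out 2 to 4 were. The classical C1S was positive without laminitis replicate 4 or normal replicate 2, CFD was negative without laminitis replicate 1 or normal replicate 2, and C3 was negative without laminitis replicate 3 or normal replicate 4, so the split by pathway did not hold throughout.

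**Figure D3:**
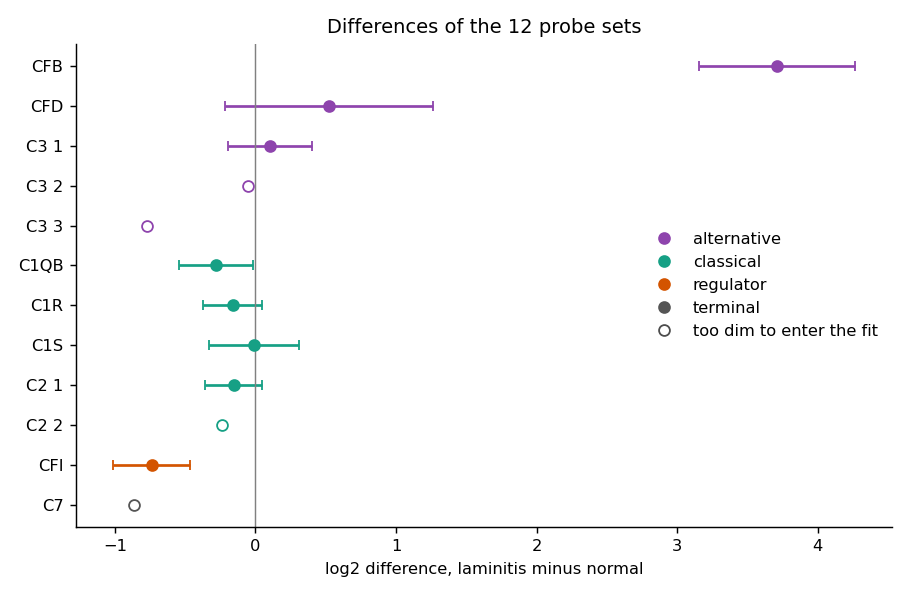
Log2 difference (laminitis minus normal) of the 12 complement probe sets, coloured by pathway, with numbered probe sets of C3 and C2 from bright to dim. Bars are limma standard errors (n = 3 per group), and open circles are probe sets too dim to enter the fit. CFB lies at 3.71 and the other 11 between -0.87 and 0.53.

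Of 43 further complement gene symbols listed, 31 had a probe set and 19 entered the test with 21 probe sets. In limma 0 of the 21 were called higher and 0 lower, adjusted over all 12519. An unadjusted p under 0.05 was found for 2 of the 21, beside 1226 of the 12519. Their adjusted p ran from 0.455 to 0.977, and 8 of the 21 had a positive difference, with a median of -0.16. The groups were apart in 2, both with laminitis lower, beside the 8.92% given above.

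These 2 were CPN1 and MASP1. CPN1, the catalytic subunit of the carboxypeptidase that inactivates the anaphylatoxins, had 204.8, 148 and 172.6 on laminitis replicates 1, 3 and 4, against 265.9, 273.1 and 249.7 on normal replicates 2, 3 and 4. Its log2 difference was -0.60 ± 0.20 (limma adjusted p 0.455), while a second CPN1 probe set, with overlapping groups, gave -0.16 ± 0.18 (limma adjusted p 0.808). MASP1, a protease of the lectin pathway, had 209.9, 243.6 and 195.7 in laminitis, against 305.6, 352.5 and 259.5 in normal tissue. Its difference was -0.49 ± 0.21 (limma adjusted p 0.508). COLEC11, a lectin that binds MASP proteases, had the next smallest p, with overlapping groups and a difference of -0.55 ± 0.25 (limma adjusted p 0.542).

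By role, the 9 tested probe sets of regulators had 6 positive differences and a median of 0.075. CLU, clusterin, gave 0.56 ± 0.40 and SERPING1, the C1 inhibitor, 0.18 ± 0.42. A second SERPING1 probe set, too dim to enter, gave -0.51, the opposite sign. The 5 tested probe sets of the classical and lectin pathways had 1 positive difference and a median of -0.49. The 4 of the terminal pathway had 1 positive difference and a median of -0.28, among them C9, the pore-forming component, at -0.65 ± 0.44. The 3 of receptors had 0 positive differences, with ITGB2, the beta chain of the iC3b receptors, at -0.38 ± 0.26. C1QA and C1QC, the partners of C1QB, were too dim to enter. C1QA had 26.6, 52.97 and 43.27 in laminitis, against 34.35, 183.4 and 147.2 in normal tissue, and C1QC differed by -0.0072. CFP, properdin, which stabilises the alternative convertase, was also too dim and gave 128.5, 49.73 and 21.82 in laminitis, against 21.5, 31.58 and 72.97 in normal tissue.

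**Figure D4:**
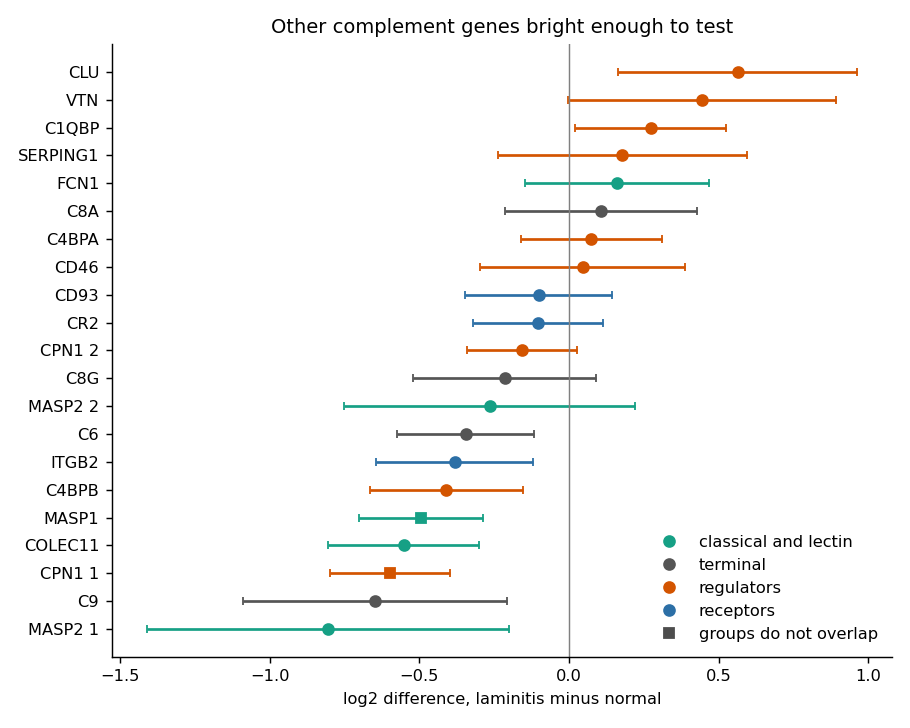
Log2 difference (laminitis minus normal) of the 21 tested probe sets of the further complement genes, coloured by role, with limma standard errors (n = 3 per group). Squares mark CPN1 and MASP1, whose groups do not overlap, and all values lie between -0.80 and 0.56.

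The genes whose profile over the 6 arrays was most like that of CFB were found by the root mean square difference of log2 values, each profile centred on its own mean, among 6150 other named genes. The closest were TNFRSF21, a death receptor (0.64), SLC25A28, a mitochondrial iron importer (0.687), FKBP2, a prolyl isomerase of the endoplasmic reticulum (0.805), BAMBI, a pseudoreceptor of TGF-beta signalling (0.828), and S100A8, a subunit of calprotectin (0.852). The group difference makes up most of the CFB profile, so likeness to it implies a high level in laminitis and adds no support to it. The same choice favours genes that are, like CFB, dimmer on laminitis replicate 4 than on the other laminitis arrays. All 5 were, which adds no support either. TNFRSF21 had 945.3, 1352 and 497.4 in laminitis, against 150.2, 141.5 and 86.22 in normal tissue. SLC25A28 had 720.4, 722.1 and 265.9 in laminitis, against 91.4, 98.13 and 102.1 in normal tissue, the profile closest to CFB in its narrow normal range.

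**Figure D5:**
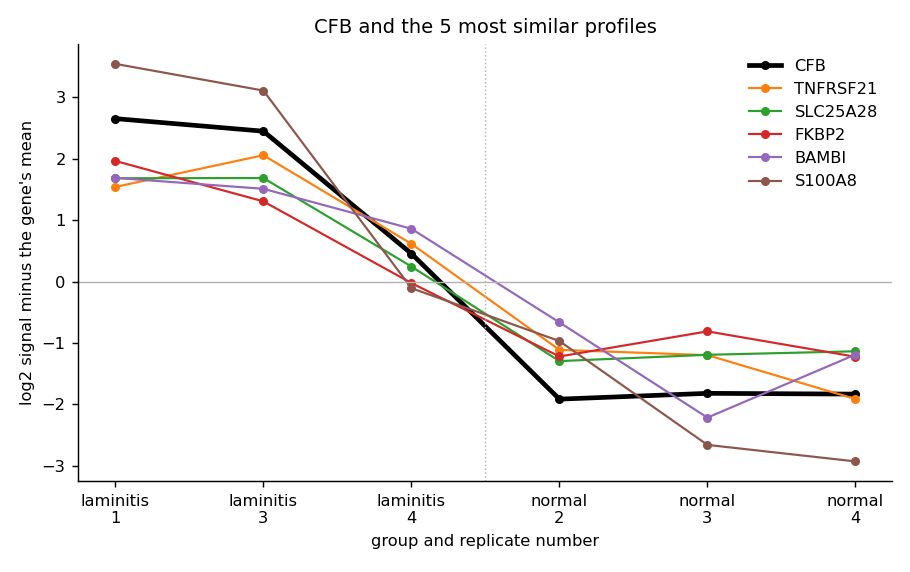
Log2 signal on each array minus the gene's mean over 6 arrays, for CFB (thick line) and the 5 genes of most similar profile, laminitis arrays left. CFB lies at 2.66, 2.45 and 0.457 in laminitis and between -1.91 and -1.82 in normal tissue, and lines join the points of a gene.

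A list of 10 genes held cytokines and transcription factors known from other tissues to induce CFB and C3, and NFKBIA, which inhibits NF-kB. Of the 10, 8 had a probe set and 5 entered the test. In limma 0 of these 5 were called over the whole array. An unadjusted p under 0.05 was found for 2 of the 5, beside 1226 of the 12519 tested probe sets. The list was chosen with earlier results known, so nothing is read from this count. NFKB2, an NF-kB subunit, had 509.1, 514.6 and 326 in laminitis, against 207.8, 236.6 and 247.8 in normal tissue, with a difference of 0.94 ± 0.24 (limma adjusted p 0.345). NFKBIA, the NF-kB inhibitor that NF-kB induces, differed by 1.52 ± 0.21 (limma adjusted p 0.136). The subunits NFKB1 and RELA overlapped between the groups, at -0.15 ± 0.31 and -0.27 ± 0.24.

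IL1B had 232.9, 217.1 and 193.8 in laminitis, against 158.7, 106.6 and 183 in normal tissue, and differed by 0.55 ± 0.25 (limma adjusted p 0.541). A dimmer IL1B probe set that did not enter the test gave -0.64, so the 2 disagree in sign. IL6 exceeded its array's median on 1 array only and did not enter the test. Its signal was 30.64, 113 and 64.83 in laminitis, against 20.02, 7.76 and 11.26 in normal tissue, so the groups did not overlap. TNF and IFNG did not enter the test either, and their groups overlapped. Among 7 listed gene symbols for neighbours of CFB and C2 in the major histocompatibility region, 3 had tested probe sets. In limma 0 of their 4 probe sets were called and 1 had an unadjusted p under 0.05, beside 1226 of the 12519 tested. EHMT2, a histone methyltransferase, had 339, 294.3 and 87.13 in laminitis, against 118.4, 44.41 and 66.14 in normal tissue, with overlap and a difference of 1.55 ± 0.59 (limma adjusted p 0.491). DXO and STK19 differed by 0.11 or less.

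Markers of cell types that make complement or carry its receptors were summed per array, each gene by its brightest probe set. Signals were added as deposited, so the brightest probe sets weigh most in a sum and can hide changes in dimmer ones. The neutrophil list, 8 of 10 genes with a probe set and 4 tested, summed to 13350, 10230 and 1572 on laminitis replicates 1, 3 and 4, against 1035, 570.2 and 613.2 on normal replicates 2, 3 and 4. This sum had the array order of CFB in laminitis, and S100A8 and S100A9 carried it. Of the same list S100A12 was also apart with laminitis higher, MPO, ELANE and CAMP were apart with laminitis lower, and CAMP, LTF and MMP9 exceeded the median on no array. The macrophage list, 7 of 8 genes with a probe set and 4 tested, summed to 698.9 to 830.2 in laminitis and 592.5 to 697.4 in normal tissue, so these sums did not overlap either, by a narrow margin. CYBB was apart with laminitis higher and alone carried this gap. It had 233.1, 264.8 and 255.8 in laminitis, against 37.37, 40.83 and 107 in normal tissue. The other tested markers overlapped, with log2 differences of 0.59 for MSR1, -0.16 for CD14 and -0.26 for CD68. CSF1R, too dim to test, was apart with laminitis lower, and AIF1 and ITGAM exceeded the median on no array. The part of these cells in the CFB difference was not tested.

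The hepatocyte list, 7 of 8 genes with a probe set and 5 tested, summed to 1380 to 1755 in laminitis and 1482 to 1497 in normal tissue. The keratinocyte list, 6 of 10 genes with a probe set and all 6 tested, summed to 1504 to 2249 in laminitis and 1132 to 1954 in normal tissue, and KRT14 and KRT5 were above the median on all 6 arrays. The fibroblast list, 10 of 10 genes with a probe set and 9 tested, summed to 9056 to 30660 in laminitis and 9768 to 31840 in normal tissue, with replicate 4 highest in each group. The endothelial list, 8 of 8 genes with a probe set and 5 tested, summed to 656 to 868.6 in laminitis and 781.3 to 931.8 in normal tissue, with TEK, VWF and SELE above the median on no array. In these 4 lists the sums of the groups overlapped, although ALB and DCN were apart with laminitis lower and PDGFRA with laminitis higher.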

How the data were processed

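Total RNA of 3 laminitis and 3 normal samples of lamellar tissue was labelled with biotin after a single cycle of amplification from an oligo(dT) primer and read on the Affymetrix bovine GeneChip, per the labels' protocols. The authors deposited 1 intensity per probe set and array, on a linear scale. The submitters' processing notes name GCRMA, with no version. The mean after trimming 2% at each end was 149.98 on every array, which points to a single scaling factor per array and which GCRMA alone does not give, so the step that made the values is not settled. Values were used as deposited, and detection calls were not used here.

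Of 24128 probe sets 112 controls were left out. Symbols are bovine, from GEO's platform annotation, and 13292 of the other 24016 probe sets had 1 symbol, 86 several and 10638 none. Of the 9 members 8 are listed by symbol in the horse RefSeq table used here, and C3 is not. Laminitis was compared with normal tissue on log2 values, with no offset, with limma 3.58.1 (lmFit, then eBayes; R version 4.3.3). Tests were two-sided, adjusted by Benjamini and Hochberg's method for 12519 probe sets, at a threshold of 0.05. The procedure was tested on simulated data. No 2 arrays held identical values, and their log2 values correlated at 0.871 to 0.909 across probe sets, which are not independent replicates. Precision is limited by the number of arrays. The members and all lists were chosen with earlier results of these data known. All member probe sets are reported. Further complement genes were named where the groups were apart or among the 3 of smallest p, and CLU, SERPING1, C9, ITGB2, C1QA, C1QC and CFP were added after their values were seen. Alternatives were other filters and scalings, offsets of 16 and 64, an intensity trend, array weights, the replicate number as a block and leaving out each array. Sequences of the genes and probes were not used here.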

Additional observations from a re-analysis of the deposited data

How the results depend on the processing

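The CFB log2 difference ran from 2.28 with 64 added to every signal to 4.41 without laminitis replicate 4. The lowest with 1 array left out was 3.31, without laminitis replicate 1. CFB was selected on its high level in laminitis and its groups were apart. An offset or leaving out an array could therefore not change the sign, which adds no support. Only the size of the difference is informative here. CFB could not be fitted when a probe set had to exceed the median on all 6 arrays. That filter also removes CFI and leaves 4 members whose groups overlapped in the full data, so the count of members apart was 0 by construction. Under it limma called 6 probe sets over the whole array, 0 of them complement genes. An intensity trend with robust variance called 4, again 0 of them complement genes. With 1 array left out limma called 0 to 2 probe sets, the 2 without laminitis replicate 4. Of these 2, 1 was CFB, which was selected on its high level in laminitis, so the call adds no support. With 1 array left out 2 to 3 members had groups apart, with C1S, C1R or C1QB beside CFB and CFI in turn. NFKBIA passed under the filter on all 6 arrays (limma adjusted p 0.0371), which tests 8468 probe sets, and under no other setting. Its list was chosen with earlier results known, so nothing is read from this pass. Other complement genes gave 0 calls under every alternative.

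With the replicate number as a block, 0 probe sets were called, and the CFB difference was 3.28, that of CFD -0.81 and that of the brighter C2 probe set 0.046. Numbers 3 and 4 are shared by the groups. Deviations from the group means correlated across probe sets at -0.0167 for number 3 and -0.031 for number 4. For laminitis 4 with normal 3 the value was 0.0599. These correlations give no sign that the numbers pair the arrays, but with 3 arrays per group they cannot exclude it. The fibroblast sum was highest on replicate 4 in each group. Some small differences changed sign. NFKB1 gave 0.0595 with the block, 0.0341 without laminitis replicate 1 and 0.0767 without normal replicate 4, within -0.411 to 0.0767 over the arrays left out. STK19 gave -0.123 without laminitis replicate 4 and -0.0563 without normal replicate 4 (-0.123 to 0.331 over the arrays left out), and DXO -0.012 without normal replicate 3 (-0.012 to 0.184). The cause was not tested. Probe sets near background limit C7, the dimmer C3 and C2 probe sets and the normal level of CFB.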
